A study of Zea mays with 6 samples.

Results

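The overexpression of RHW1 was compared with wild type in very young maize ears by RNA sequencing, using 2 libraries of an overexpression line (labelled OE#1) and 2 of wild type. The comparison covers every gene that passed a filter on low counts, 22947 of the 45578 genes in the deposited table, and uses 4 of the 6 libraries of the series. The other 2 libraries came from a CRISPR line labelled as a knockout of RHW1 (rhw1-1); they entered the estimate of the spread and their values are given only as context. The ears of each genotype were at most 0.5 cm long. The overexpression group was 1 line, so effects of the transgene and effects particular to that line cannot be told apart. Its promoter, the genetic background of the plants, and whether both libraries of 1 genotype represent different plants are details that the sources used here do not give, so the p-values measure only the spread between these libraries.

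The husk is the set of leaves that encloses the maize ear, and the series title links RHW1 to ZCN4 in the natural variation of husk leaf width. ZCN4 belongs to the maize relatives of TERMINAL FLOWER1. Proteins of this family, together with the related FLOWERING LOCUS T proteins, bind transcription factors rather than DNA, and set whether a shoot tip continues to grow or forms flowers; the TERMINAL FLOWER1 side of the family is known for keeping inflorescence meristems growing. At the sampled stage a maize ear consists mostly of such meristems and of young spikelet primordia.

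The libraries held 21094445 to 23999698 reads counted on genes, and the reference table paired 0 of the Zm00001d and 0 of the ENSRNA identifiers with a gene name. RHW1 and ZCN4 were therefore not analysed here, the overexpression label was not checked against its target gene, and the tissue was not checked against markers of the young ear. Genes other than microRNA genes appear below by identifier, with no function given. In bulk tissue, fewer cells of a type and less RNA per cell cannot be told apart.

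Ears of the overexpression line differed from wild-type ears in many transcripts, most of them by a small amount. Of the 22947 tested genes, 29.2% were called (adjusted p under 0.05, edgeR's quasi-likelihood test with Benjamini-Hochberg adjustment), 15.3% higher and 13.9% lower in overexpression. That is 3502 genes that rose and 3196 that fell. The median size was 1.22-fold for the rises and 1.26-fold for the falls, and 5639 of the called genes (84.2%) changed by less than 1.5-fold. Only 48 rises and 35 falls reached 4-fold.

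By their medians, these small differences were larger than those between libraries of the same genotype. The median absolute log2 fold change of the called genes was 0.30, and that of all tested genes 0.17. The median absolute log2 difference between the 2 libraries of a genotype, over all tested genes, was 0.094 in wild type and 0.094 in overexpression. It was taken from log2 CPM with a prior count of 2, which pulls the differences of weakly expressed genes toward zero. The fold changes were fitted values between genotypes, so the measures are not strictly alike. The overexpression libraries did not overlap the wild-type libraries in 63.2% of tested genes, and in 99.9% of the called genes, whose choice rests on the same difference. With 2 libraries a genotype, a sizeable share of genes would not overlap even without any difference between genotypes. Among the called genes were 7 whose genotypes overlapped, 3 higher and 4 lower. One of these, Zm00001d022356, had counts of 303 and 143 in wild type and of 160 and 612 in overexpression, so the libraries of each genotype differed from one another.

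**Figure D1:**
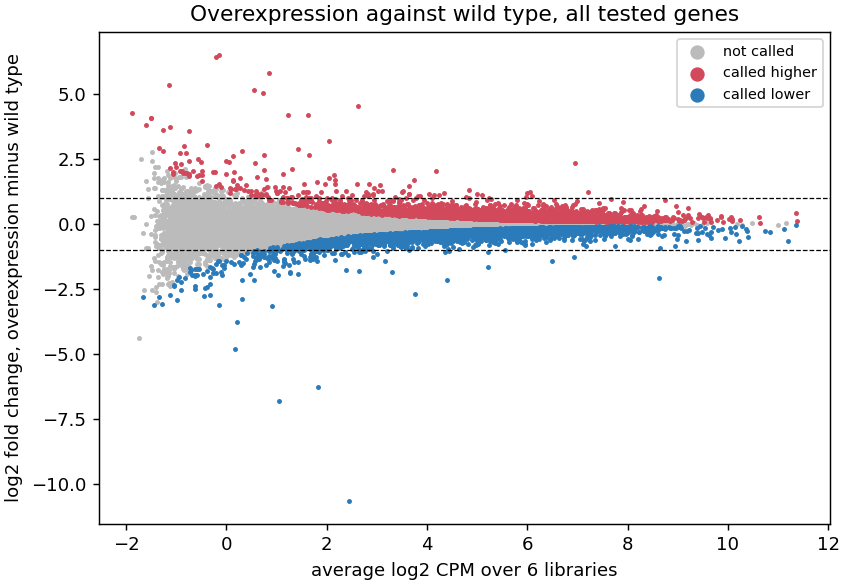
Log2 fold change of overexpression over wild type (vertical axis) against average log2 CPM over the 6 libraries (horizontal axis) for the 22947 tested genes, with called genes in colour and dashed lines at 2-fold. Called genes at high levels lie close to 0, and the 350 called genes beyond the dashed lines are mostly weakly expressed.

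The balance of rises and falls shifted with the level of a gene. The tested genes were divided by mean CPM over all 6 libraries into 4 groups of equal size. Rises made up 41.6% of the calls in the lowest group (239 higher, 335 lower) and 41.2% in the second (529 higher, 756 lower). In the third group the share was 52.4% (969 higher, 880 lower), and in the highest group 59.0% (1765 higher, 1225 lower). The median log2 fold change over all tested genes, called or not, moved the same way, from -0.080 in the lowest group through -0.027 and 0.0027 to 0.030 in the highest, around a median of -0.0050 over all groups. This division was made after the data were seen, and no test of the trend was run. The overexpression libraries also entered the mean that set the groups, which tends to move rising genes up and falling genes down. That is the direction of the trend, and how much of the trend comes from it was not tested. The shares stayed on the same side of 50% with every alternative scaling, filter, tool and left-out library that was tried. The only other scaling was by RLE size factors. A change of scaling moves the medians of all 4 groups together, so the side of 0 on which a group lies depends on the scaling.

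**Figure D2:**
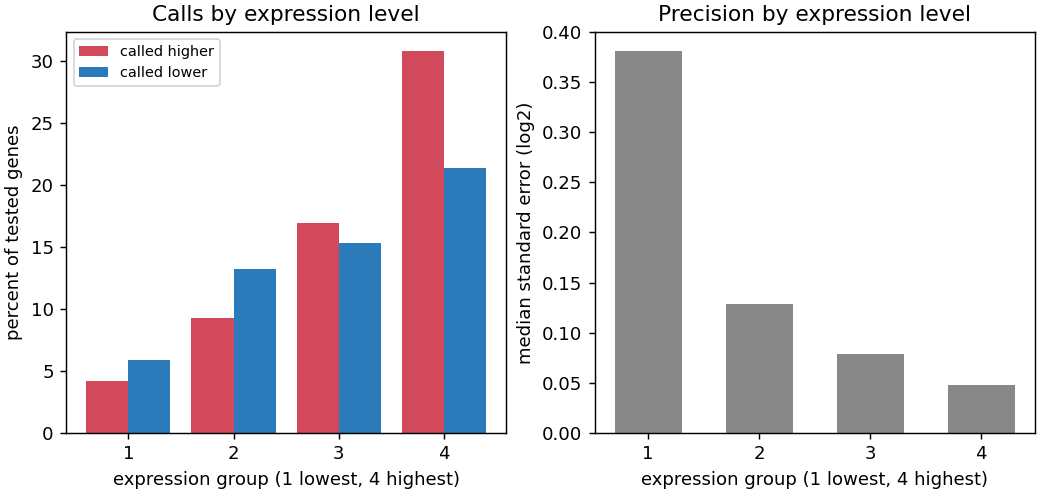
Left, the percentage of tested genes called higher or lower in overexpression in 4 groups of genes ordered by mean CPM over all 6 libraries; right, the median standard error of the log2 fold change in the same groups. Falls outnumber rises in the 2 lowest groups and rises outnumber falls in the 2 highest, while the median standard error drops from 0.381 to 0.0474.

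What the test could detect differed as strongly between these groups. For the log2 fold change the median standard error was 0.381 in the lowest group, whose median level was 1.56 CPM, and 0.129, 0.0789 and 0.0474 in the next ones, the highest having a median of 90.1 CPM. Called rises had a median of 2.02-fold in the lowest group and 1.16-fold in the highest. A further 363 genes had a fitted change of 2-fold or more and were not called; their median level was 0.489 CPM, against 1.77 CPM for the 350 genes that were called at that size. Small changes were thus harder to detect in weakly expressed genes, at this depth and with 2 libraries a genotype. Called falls in the lowest group had a median of 1.98-fold, so changes below 2-fold were also called there.

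Counted in reads rather than genes, the comparison moved several percent of the RNA pool. The genes called higher gained 52100 CPM in sum, and the genes called lower lost 41379 CPM. These sums equal 5.21% and 4.14% of the reads counted on genes only roughly, because CPM was computed on library sizes scaled by TMM factors. The factors were 1.0019 and 1.0022 for wild type but 0.9906 and 0.9914 for overexpression, so scaled CPM total more in overexpression. The excess of the gain over the loss therefore does not show a net gain of RNA. Over the same 6698 genes the absolute differences between the 2 genotypes summed to 93479 CPM, while those between the 2 wild-type libraries summed to 18430 CPM and those between the 2 overexpression libraries to 17526 CPM. The genes were called on the first of these differences, so the sums describe its size and do not test it. Few of the moved reads belonged to genes with large fold changes. Genes called at 2-fold or more made up 2.37% of the gain and 2.58% of the loss. The gain was spread over more genes than the loss: 541 of the 3502 higher genes (15.4%) carried 50% of the gain, and 362 of the 3196 lower genes (11.3%) carried 50% of the loss. The 10 genes with the largest differences made up 5.60% of the gain and 10.9% of the loss.

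**Figure D3:**
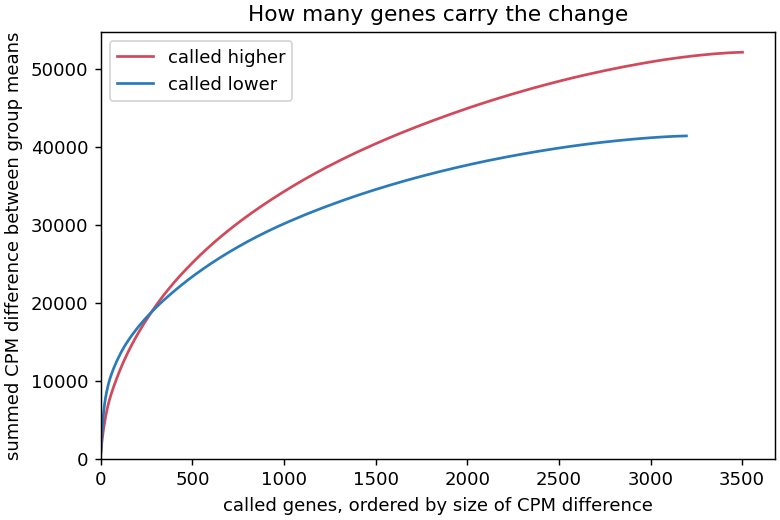
Summed difference in CPM between the mean of overexpression and the mean of wild type (vertical axis) over the called genes, ordered from the largest difference to the smallest (horizontal axis). The curve for higher genes ends at 52100 CPM after 3502 genes and that for lower genes at 41379 CPM after 3196 genes, with the steeper start in the lower genes.

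The largest differences in reads were those of abundant transcripts that changed less than 2-fold. Zm00001d041550 stood at 2761 and 2820 CPM in the wild-type libraries and at 1762 and 1769 CPM in those of overexpression. It fell by 0.66 on the log2 scale (edgeR adjusted p = 3.17e-28, SE 0.016). Its mean fell by 1025 CPM, the largest difference of any called gene. The knockout libraries, at 2450 and 2488 CPM, lay between the other genotypes. The wild-type libraries had 1524 and 1433 CPM of Zm00001d013568, the knockout libraries 1151 and 1186 CPM and the overexpression libraries 919.87 and 940.93 CPM. Its log2 fold change was -0.67 (edgeR adjusted p = 1.16e-23, SE 0.022), and overexpression was again the lowest of the 3 genotypes.

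Zm00001d047253 showed the largest gain of any called gene, from 2383 and 2387 CPM in wild type to 3173 and 3158 CPM in overexpression, a log2 fold change of 0.41 (edgeR adjusted p = 3.21e-22, SE 0.015). The knockout libraries, at 2335 and 2393 CPM, overlapped those of wild type. Zm00001d014858 had the second largest gain, from 1516 and 1478 CPM to 1796 and 1798 CPM, a log2 fold change of 0.26 (edgeR adjusted p = 1.72e-14, SE 0.018), with 1469 and 1441 CPM in the knockout. In each of these 4 genes overexpression and wild type lay several times further apart than the libraries of either of them. The 4 genes were chosen for large CPM differences among called genes whose genotypes did not overlap, so this gap is a description only.

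**Figure D4:**
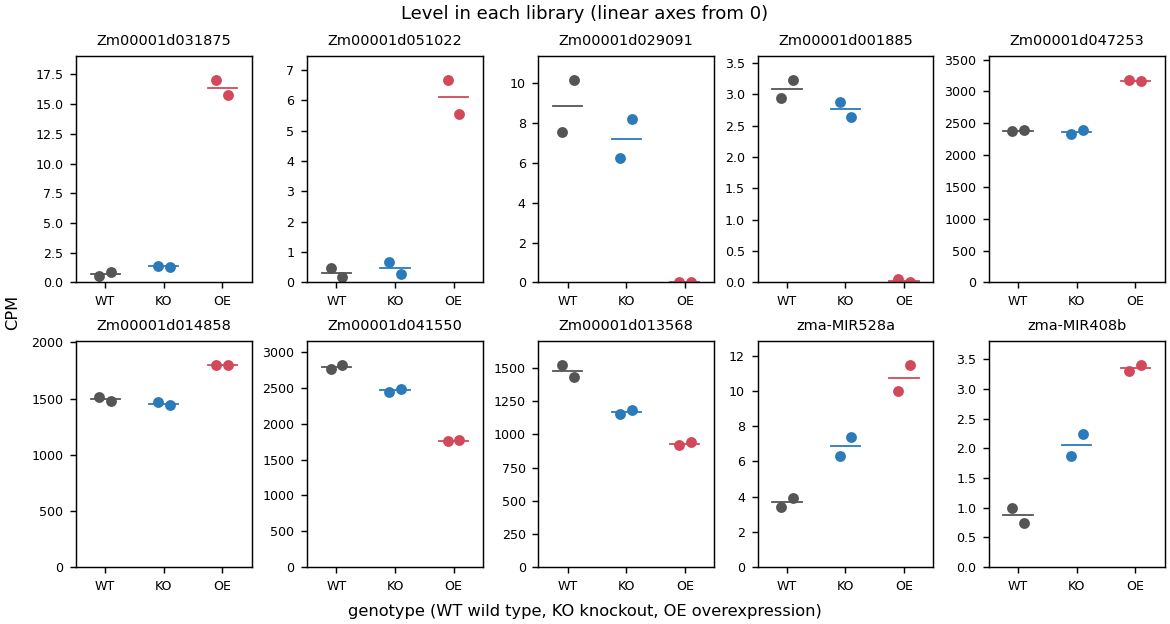
CPM in each library (vertical axes, linear and starting at 0; points) and the mean of each genotype (lines) for the genes with the largest log2 changes, the genes with the largest CPM changes, zma-MIR528a and zma-MIR408b. Overexpression lies outside the range of both other genotypes in all 10 panels. The genes with the largest changes were chosen among genes whose overexpression and wild-type libraries did not overlap. The knockout lies between wild type and overexpression without overlap in Zm00001d041550, Zm00001d013568, Zm00001d031875, Zm00001d001885 (close to wild type), zma-MIR528a and zma-MIR408b.

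The genes called at 2-fold or more, 350 in number (1.53% of those tested), were divided into 168 that rose (0.732%) and 182 that fell (0.793%). Most were weakly expressed: the lowest expression group held 127 of the rises and 160 of the falls, and the highest group 6 and 3. In 303 of the 350 (146 higher, 157 lower) both overexpression libraries lay outside the range of all other 4 libraries, as they did in 42.7% of all tested genes. Since the 350 were chosen for their distance from wild type, that count is a description only. With any 1 of the 4 libraries left out, 158 of the 350 were called in every such fit, and 114 were called and stayed at 2-fold or more in every such fit. DESeq2 called 207 of them and gave 90 no adjusted p.

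Zm00001d031875 rose the most among genes whose average log2 CPM reached 1. Its reads numbered 13 and 19 in wild type, 34 and 29 in the knockout and 355 and 374 in overexpression, a log2 fold change of 4.54 over wild type (edgeR adjusted p = 9.86e-19, SE 0.22). Its value ranged from 4.28 to 4.85 over all alternatives. Zm00001d051022 followed, with 11 and 4 reads in wild type, 16 and 6 in the knockout and 139 and 132 in overexpression. Its log2 fold change was 4.20 (edgeR adjusted p = 8.17e-11, SE 0.39), and it became 5.07 when wild type replicate 1 was left out and 3.67 when replicate 2 was. The knockout libraries of both genes stayed far below those of overexpression.

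The falls of greatest fold ended near 0 reads. Zm00001d029091 had 175 and 230 reads in the wild-type libraries, 150 and 183 in the knockout and 0 in both overexpression libraries. With a floor of 3 counts over the group it was at least 132-fold lower in overexpression, and the lower end of the exact 95% interval was 107-fold; such intervals and floors cover counting error only. Zm00001d001885 had 68 and 73 reads in the wild-type libraries, 69 and 59 in the knockout and 1 and 0 in overexpression, a ratio of 137.5 (exact 95% interval 24.3 to 5469). The adjusted p was 6.61e-17 for Zm00001d029091 and 1.30e-10 for Zm00001d001885 (edgeR). Both genes had knockout levels close to those of wild type and far above overexpression.

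Genes that were all but silent in 1 genotype formed a short list. With at most 3 reads over both libraries of a genotype as near absent, and at least 10 reads in each library as present, 9 genes were present in overexpression and near absent in wild type, and 6 were the reverse. The test called 8 of the 9 and 5 of the 6; the others, Zm00001d042740 and Zm00001d044507, did not pass the filter on low counts. Zm00001d041013 had 0 and 1 reads in the wild-type libraries, 0 and 0 in the knockout and 61 and 49 in overexpression (ratio 113, exact 95% interval 19.8 to 4495). Zm00001d021040 had 1 and 0, 0 and 0, and 36 and 69 reads in the same order (ratio 108, exact 95% interval 18.9 to 4293). Zm00001d023952 fell from 135 and 119 reads in wild type to 1 and 2 in overexpression (ratio 82.6, exact 95% interval 27.9 to 403), with 126 and 91 in the knockout. These genes were singled out after their values were seen.

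The knockout did not side with wild type in the whole list. Among the 9 genes gained in overexpression, Zm00001d037353 had 3 and 12 reads in the knockout beside 10 and 10 in overexpression, and Zm00001d041139 had 9 and 11 beside 12 and 17. Among the 6 lost, Zm00001d013743 had 2 and 3 reads in the knockout beside 3 and 0 in overexpression. Wild type was thus the genotype that stood apart in these 3 genes, at counts too low to place the knockout firmly. The genes named from this list were also chosen after their values were seen.

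**Figure D5:**
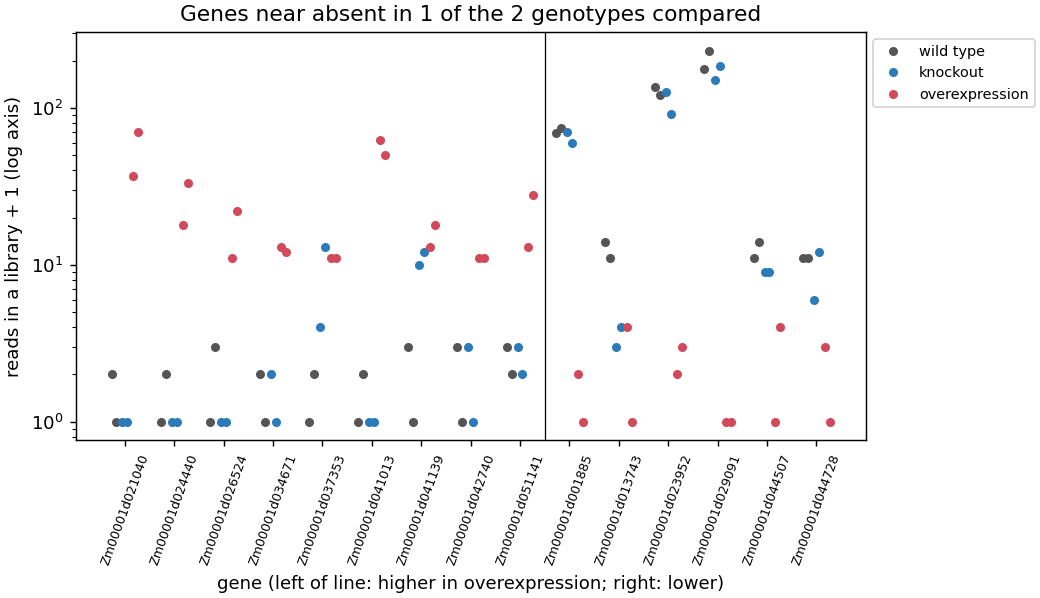
Reads per library plus 1 (vertical log axis) of the 15 genes near absent in wild type or in overexpression, 9 on the left of the line and 6 on the right. The knockout points lie with wild type for Zm00001d029091, Zm00001d001885 and Zm00001d023952, at 59 to 183 reads, and near overexpression for Zm00001d037353, Zm00001d041139 and Zm00001d013743.

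A few abundant genes were also called at 2-fold or more, 6 higher and 3 lower in the highest expression group. Zm00001d016070 had 13977 and 13874 reads in the wild-type libraries, 10307 and 9706 in the knockout and 2948 and 3496 in overexpression. It was 4.22-fold lower than wild type (log2 fold change -2.08, SE 0.029, adjusted p = 2.65e-36, edgeR). Its mean CPM was 608.11 ± 6.19 for wild type and 144 ± 4.14 for overexpression (SD, n = 2). Zm00001d018482 went the other way, with 1131 and 1104 reads in wild type, 1916 and 1714 in the knockout and 5125 and 5913 in overexpression, 5.06-fold higher (log2 fold change 2.34, SE 0.043, adjusted p = 2.65e-32, edgeR). The knockout lay between wild type and overexpression in both genes, nearer to wild type. Zm00001d039566 differed in that respect: the knockout, at 199 ± 6.11 CPM, was above wild type, at 119 ± 0.910 CPM, while overexpression stood at 49.2 ± 0.0463 CPM (SD, n = 2), a log2 difference from wild type of -1.28 (edgeR adjusted p = 8.56e-23, SE 0.046). These 3 genes were chosen after their values were seen.

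Genes with large changes were spread over many stretches of identifiers. Numbers of Zm00001d identifiers generally run along the chromosomes, so genes with neighbouring numbers are mostly neighbours in the genome; their positions were not used here. In 457 windows of 50 tested genes in identifier order (fewer in the last), 215 held no gene called at 2-fold or more, 165 held 1, 56 held 2 and 21 held 3 or more, with a mean of 0.755. The richest window held 5, of which 3 rose and 2 fell. One of its falls, Zm00001d016159, had 48 and 256 reads in the wild-type libraries and 37 and 50 in overexpression, so its genotypes overlapped. Of the 21 windows with 3 or more, 7 held genes of a single direction, 2 with rises and 5 with falls, and the fullest of these held 4 genes, which all rose. Of the 3 rises in the richest window, that of Zm00001d016255 was the largest (log2 fold change 2.67, SE 0.28, adjusted p = 1.64e-09, edgeR). Its read counts were 31 and 18 for wild type, 29 and 33 for the knockout and 119 and 188 for overexpression. Zm00001d016185 had 98 and 78, 66 and 79, and 230 and 272 reads in the same order (log2 fold change 1.55, SE 0.17, adjusted p = 6.33e-09, edgeR). The third rise, Zm00001d016157, had 22 and 38, 43 and 28, and 54 and 79 reads; its log2 fold change of 1.17 (edgeR adjusted p = 0.0075, SE 0.34) lost its call without wild type replicate 1 (adjusted p = 0.14) and without overexpression replicate 2 (adjusted p = 0.10).

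Of the microRNA genes, the precursor loci that the table names, 2 of the 10 tested were called (20%), both higher in overexpression, beside 29.2% of all tested genes. The median level of the 10 was 1.10 CPM. In the lowest expression group, with a median of 1.56 CPM, 4.17% of genes were called higher and 5.84% lower, so 29.2% is not the share at a like level. MicroRNA precursors are cut to short RNAs that guide the cleavage of matching transcripts, and reads on a precursor gene do not measure the mature microRNA. zma-MIR528a, the gene of a microRNA known in grasses for targeting transcripts of copper-containing oxidases, had 79 and 89 reads in the wild-type libraries, 152 and 165 in the knockout and 209 and 273 in overexpression. Its log2 fold change over wild type was 1.55 (edgeR adjusted p = 2.21e-09, SE 0.17) and ranged from 1.45 to 1.66 over the alternatives. zma-MIR408b, of a family known for targeting transcripts of copper proteins, had 23 and 17, 45 and 50, and 69 and 81 reads in the same order. Its log2 fold change was 1.94 (edgeR adjusted p = 1.80e-05, SE 0.33) and ranged from 1.75 to 2.15. In both genes the 3 genotypes did not overlap, with wild type lowest and overexpression highest.

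None of the remaining 8 microRNA genes was called by edgeR (unadjusted p from 0.25 to 0.78) or limma-voom. DESeq2 gave 4 of them an adjusted p and called 0 of these; it gave the other 4 none. zma-MIR168a, whose microRNA targets ARGONAUTE1 transcripts, had read counts of 105 and 59 in wild type and of 79 and 65 in overexpression (log2 fold change -0.14, SE 0.26). zma-MIR159a, of the family that acts on GAMYB transcription factor transcripts, had 34 and 64 against 58 and 44 reads (log2 fold change 0.10, SE 0.33). zma-MIR160b, whose family acts on auxin response factors, had 27 and 19 against 17 and 20 reads (log2 fold change -0.28, SE 0.49). The fitted change of zma-MIR160d, 0.79, had a standard error of 0.72. zma-MIR528b gives the same mature microRNA as zma-MIR528a, so how reads were divided between these loci is uncertain. Wild-type libraries had 0 and 11 reads of it, and overexpression libraries 10 and 3.

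Among the 113 tested ENSRNA genes, the second class of identifiers besides the numbered genes, 7 rose and 2 fell. That is 7.96% called, beside 29.2% of all tested genes; the median level of the ENSRNA genes was 0.936 CPM and that of Zm00001d genes 20.4 CPM. In the lowest expression group, with a median of 1.56 CPM, 4.17% of genes were called higher and 5.84% lower. The most abundant ones were ENSRNA049479257, with 925 and 820 reads in wild type, 1274 and 973 in the knockout and 958 and 1426 in overexpression, and ENSRNA049479549, with 834 and 677, 1057 and 1070, and 1061 and 1315 reads. Their log2 fold changes over wild type were 0.48 (SE 0.087) and 0.69 (SE 0.075), with adjusted p = 4.24e-05 and 3.05e-09 (edgeR). In CPM, overexpression overlapped the knockout for ENSRNA049479257 and lay above it for ENSRNA049479549, and wild type was the lowest genotype for both.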

How the data were processed

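RNA was extracted with a plant kit, treated with DNase and made into libraries by the NEBNext Ultra II method, per the labels' protocols. The authors deposited raw read counts per gene, not normalized. Tools listed in the submitters' processing notes, with no roles, are HTSeq, StringTie, HISAT2 2.1.0, edgeR 3.32.1 and Trimmomatic 0.35; build, annotation and use of strand are not given there or in other sources used here. Whether reads of overlapping genes and of near-identical copies were separated is therefore not known. All columns of the table were used.

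Genes were kept with filterByExpr (minimum count 10) and scaled by TMM factors; the test was the quasi-likelihood F-test of edgeR 4.0.16 under R 4.3.3, with 1 fit of 6 libraries with 3 group means and 3 residual degrees of freedom; the prior had 33.2. P-values were adjusted by Benjamini-Hochberg over 22947 genes. The tested genes held at least 99.9% of the reads counted on genes in every library. CPM uses TMM-scaled library sizes with no pseudocount. The standard error is the log2 fold change divided by the square root of F. Exact 95% intervals of count ratios are binomial. The test was checked on simulated data. Each pair of replicates differed beyond counting noise (chi-square per gene 2.39 in wild type, 2.24 in overexpression).

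The rule for named genes took all tested microRNA genes and, where the average log2 CPM reached 1, genotypes did not overlap and the adjusted p was under 0.05, the 2 largest rises and 2 largest falls in log2 and in CPM and up to 4 genes of the richest window. Members, lists and rules were chosen with earlier results of these data known. Lists of genes by name, 17 in number, had 0 members paired with an identifier and were not tested. Alternatives were RLE size factors, 2 other filters, limma-voom (limma 3.58.1), a replicate block, DESeq2 1.42.0, a fit of 4 libraries, robust dispersions and each library left out.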

Additional observations from a re-analysis of the deposited data

How the results depend on the processing

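The count of 6698 called genes stayed within 1.5 times under RLE size factors, other filters, limma-voom, a fit of wild type and overexpression alone, and robust dispersions, from 6607 to 6761. DESeq2 called 4455 genes, each of them also called by edgeR, and 209 at 2-fold or more, against 350. Leaving out 1 library gave 4823 to 5128 genes, 293 to 325 of them at 2-fold or more; the lone library left in its genotype is then assumed to vary like the other groups. The share of rises among the called genes, 52.3%, lay between 52.2% and 54.0% under all alternatives. Same-numbered libraries did not deviate together (correlation -0.0139 across genes), so the numbers were not taken as pairs, and the replicate block gave 6465 genes, 323 at 2-fold or more. Near absence depended on its limits: with 0 reads required, 0 genes were gained and 1 lost in overexpression, and with at least 30 reads for presence there were 2 and 3, because stricter limits can only remove genes. The richest window held 3 genes with windows of 25 genes, as smaller windows hold fewer, and 6 with windows of 100.

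The 21 named genes gave 242 values over 12 alternatives. Of these 2 lost their call, both of Zm00001d016157, and 7 changed sign, all in microRNA genes that were not called. Leaving out 1 library moved the log2 change of zma-MIR159a from -0.296 (without wild type replicate 1) to 0.648, with -0.21 without overexpression replicate 1. That of zma-MIR166a ranged from -0.188 (without wild type replicate 2) to 0.903, and that of zma-MIR168a from -0.482 to 0.316 (without wild type replicate 1), with 0.081 without overexpression replicate 2. That of zma-MIR528b ranged from -0.904 (without overexpression replicate 1) to 0.975, with -0.708 without wild type replicate 1; it did not pass the count filter when wild type replicate 2 was left out, and limma-voom gave 1.35 with all libraries. Each rests on few reads. Over all alternatives, the log2 change of Zm00001d001885 ranged from -9.16 to -5.85 and that of Zm00001d029091 from -10.85 to -8.61, since fitted sizes near 0 reads depend on the tool and the libraries. The alternatives for genes by name were not run.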

Other observations

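Genes called at 4-fold or more, 83 in number, included 5 pairs whose members lay within 10 tested genes of each other in identifier order. In 2 of these pairs both members rose, and they were the 2 pairs with no tested gene in between. The pair Zm00001d041007 and Zm00001d041013 had at most 3 reads in any wild-type or knockout library. In overexpression Zm00001d041007 had 129 and 100 reads and Zm00001d041013 had 61 and 49 (adjusted p = 3.98e-11 and 1.34e-07, edgeR). The pair Zm00001d024440 and Zm00001d024441 had at most 4 reads in any of these 4 libraries. In overexpression Zm00001d024440 had 17 and 32 reads and Zm00001d024441 had 91 and 88 (adjusted p = 0.00016 and 1.62e-09, edgeR). In the other 3 pairs one member rose and the other fell. These pairs were noticed after the data were seen and no test of their closeness was run; whether the members of a pair share reads is not known from the sources used here.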
